A study of Macaca mulatta with 16 samples.

Results

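The ABC transporter family was examined in total RNA sequencing of archived cardiac tissue from 8 rhesus macaques. Its members were taken by name alone, as every row of the deposited gene table whose symbol reads ABCA to ABCG followed by a digit, which gave 37 of the 19425 genes in the table. Subfamily A held 11 of them, B held 5, C held 10, D held 4, E held 1, F held 3 and G held 3. Each animal contributed 1 library per extraction method, so the design was 8 Method QE libraries paired with 8 Method BL libraries, 16 in all. The animals were of Indian origin and came from a study that models pressure overload of the right ventricle. Their hearts had been perfused with fixative, embedded in paraffin (FFPE) and archived at room temperature. The labels give no chamber, age, sex or treatment for any library. In Method QE, RNA was extracted with a Qiagen AllPrep DNA/RNA FFPE kit after xylene deparaffinization with added ethanol washes. In Method BL, a CELLDATA RNAstorm kit was used with a prolonged protease lysis.

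ABC transporters use ATP to move substrates across membranes. They share a nucleotide-binding domain in which the Walker A motif, a phosphate-binding loop, contacts the ATP. Subfamilies A, B, C, D and G include transporters of lipids, drugs, conjugated metabolites and fatty acids, whereas the E and F proteins have no membrane part and work on ribosomes. In the heart the best known member is ABCC9, the sulfonylurea receptor SUR2, which forms ATP-sensitive potassium channels with Kir6 subunits. ABCC3, also called MRP3, exports bile salts and glucuronide conjugates and is best known from liver and gut.

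The coding stretch around the first Walker A motif was read from RefSeq transcripts of the Mmul_10 build for the genes on which the results turn. The motif was searched in each translated coding sequence as a glycine, 4 residues of any kind, a glycine, a lysine and then a serine or threonine. Of 19498 RefSeq coding genes, 4.57% held at least 1 match. The motif occurred 2 times in 25 of the members and 1 time in 11. Those with 1 were 4 of subfamily B and all members of subfamilies D and G, proteins known to assemble as dimers. ABCC2 was not read. Every stretch printed here has 60 bases and runs 5′ to 3′ along the gene's strand, with the 24 bases of the motif in capitals. ABCC3 (chr16:46118149-46118208, minus strand, exon 16 of 31) is set beside its relative ABCC1 (chr20:15653817-15653876, plus strand, exon 16 of 31) because ABCC3 was the only member that passed the test between methods.
ABCC3: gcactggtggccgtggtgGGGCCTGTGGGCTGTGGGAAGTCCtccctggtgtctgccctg
ABCC1: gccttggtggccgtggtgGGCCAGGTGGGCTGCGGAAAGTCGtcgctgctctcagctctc
The stretches of ABCC3 and ABCC1 differed at 14 of 60 bases, and their aligned coding sequences were 66.2% identical. No 50-base window of the ABCC3 transcript occurred in another RefSeq gene. The next 3 genes, ABCA8 (chr16:65257966-65258025, exon 12 of 39), ABCA9 (chr16:65348800-65348859, exon 13 of 40) and ABCA6 (chr16:65430950-65431009, exon 12 of 39), lie side by side on the minus strand of chromosome 16 and are shown because their levels parted in 1 animal.
ABCA8: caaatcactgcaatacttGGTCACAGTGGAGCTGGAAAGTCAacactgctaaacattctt
ABCA9: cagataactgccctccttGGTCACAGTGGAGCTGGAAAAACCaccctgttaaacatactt
ABCA6: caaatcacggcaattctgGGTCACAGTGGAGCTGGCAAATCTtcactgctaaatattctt
ABCA8 and ABCA9 were 78.7% identical over the aligned coding bases, and their motif stretches differed at 11 bases, 3 of them in capitals. Only 0.743% of the 50-base windows of the ABCA8 transcript occurred in another gene, all in ABCA9. The last pair concerns a row of the table. The ABCB4 row (chr3:118504483-118721283, plus strand) covers the RefSeq gene ABCB1 as well as ABCB4, so its count cannot be divided between the phospholipid exporter ABCB4 and the drug exporter ABCB1.
ABCB4: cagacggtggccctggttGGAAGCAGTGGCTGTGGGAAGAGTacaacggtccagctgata
ABCB1: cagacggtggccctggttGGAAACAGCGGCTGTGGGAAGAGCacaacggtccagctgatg
The ABCB4 stretch (chr3:118677720-118677779, exon 12 of 28) and the ABCB1 stretch (chr3:118568447-118568506, exon 12 of 28) differed at 4 of 60 bases.

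The libraries held 19.3 to 25.7 M gene counts with Method QE (median 22.6) and 14.999 to 25.8 M with Method BL (median 17.8). Levels are given as CPM, gene counts divided by the TMM-scaled library size in M counts, and a count of 3, the floor used here, was worth 0.108 to 0.210 CPM. Of 5 cardiomyocyte markers in the table, the summed level was 20618 to 31095 CPM in Method QE libraries and 11317 to 29589 CPM in Method BL libraries, so the tissue carried the RNA of heart muscle throughout.

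The family was led by an A-subfamily gene in these hearts. Divided by transcript length, ABCA8 averaged 30.1 CPM per kb over the 16 libraries, ahead of ABCD3 at 16.4, ABCC9 at 14.2, ABCE1 at 13.7 and ABCG2 at 12.5 CPM per kb. ABCF3 at 9.36 CPM per kb was the most abundant member of subfamily F. ABCA8 is known as a lipid exporter and, in human heart, as a gene of fibroblasts, ABCD3 is a peroxisomal fatty acid importer, ABCE1 recycles ribosomes, and ABCG2 exports drugs and urate. As shares of the family's summed CPM, which grow with transcript length, ABCA8 held 17.4%, ABCC9 10.8% and ABCC5 8.11%, and the 5 members with the most counts together held 49.5%. In all, 18 members averaged at least 10 CPM, 12 lay between 1 and 10 CPM and 7 were under 1 CPM.

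**Figure D1:**
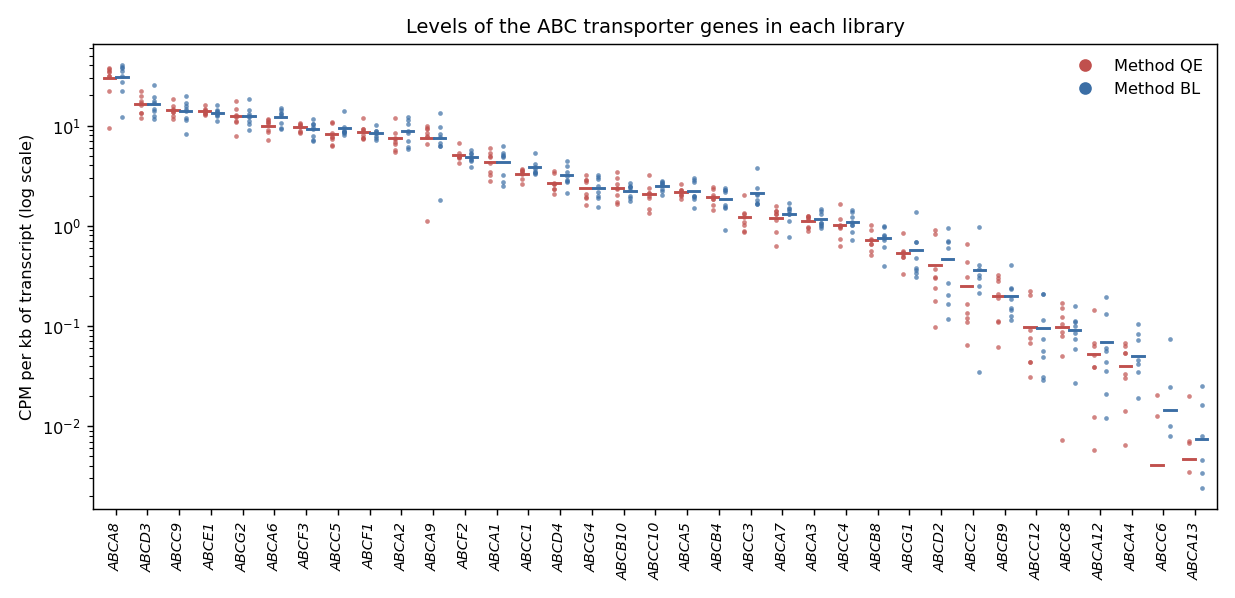
Level of 35 of the 37 genes in CPM per kb of RefSeq transcript (log axis), with 1 point per library, Method QE left and Method BL right of each gene, and horizontal bars for the means of 8 libraries. ABCA8 leads at a mean of 30.1 CPM per kb, and libraries at 0, found only for ABCA4, ABCA13 and ABCC6, are not drawn although the means include them.

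The family as a whole took a slightly smaller share of the counts with Method QE. Its members held 0.0912% ± 0.0112 of the gene counts in Method QE libraries and 0.113% ± 0.0177 in Method BL libraries (SD, n = 8 each). The difference averaged -0.0218 percentage points (SD 0.0275) and was negative in 6 of 8 animals, with a spread between animals larger than its mean. After TMM scaling the summed level was 987 ± 67.6 CPM in Method QE libraries and 1033 ± 95.9 CPM in Method BL libraries. No test was run on these sums.

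For the comparison of methods, 32 members had enough counts for edgeR's quasi-likelihood test, in which each animal formed a block. ABCC3 was the only one of the 32 that passed at a Benjamini-Hochberg adjusted p of 0.05, and no member was called higher with Method QE. Over all 14165 genes tested, 2.14% were called, 1.28% in the lower direction and 0.854% in the higher direction. At an unadjusted p of 0.05, 6 of 32 members passed, all lower with Method QE, against 9.65% of all genes lower and 8.37% higher, and 0 members were higher. DESeq2 called 1 of 32 members, in the lower direction (4.18% of all genes, 2.35% in the lower direction), and limma-voom 1 of 32 (2.44% of all genes). The log2 fold change of Method QE over Method BL had a median of -0.03 over the members, against 0.00 over all genes, and 20 of 32 members lay below 0, against 49.3% of all genes. The tested members had a median transcript length of 5182 bases, against 3419 over the 11536 tested genes with a RefSeq length, and over those genes, which are not independent, the log2 fold change had a Spearman correlation of -0.26 with length. Among the members the fold change was lowest for ABCC3 at -0.80, and 29 of 32 members stayed within 0.3 of 0. The libraries of the methods failed to overlap for 0 of 32 members, against 0.198% of all genes.

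The Method QE level of ABCC3 was the lower one in 8 of 8 animals. In Method QE libraries it measured 6.84 CPM in animal r12075, 6.28 in r15045, 5.59 in r15089, 5.24 in r16010, 4.45 in r16116, 4.59 in rh2740, 10.6 in rh2957 and 6.93 in I30. In Method BL libraries of the same animals it measured 12.3, 10.8, 8.71, 9.30, 10.4, 8.51, 19.3 and 8.59 CPM in that order. Animal rh2957 was the highest with either method, and its Method QE value lay within the Method BL range, so the groups overlapped although each pair differed in the same direction. The means were 6.31 ± 1.96 CPM with Method QE and 11.0 ± 3.61 CPM with Method BL (SD, n = 8 each). The log2 fold change was -0.80 (SE 0.10, edgeR adjusted p = 0.00570), and across all genes 3.05% had the lower level with Method QE in 8 of 8 animals, while 2.16% had the higher level in 8 of 8 and no member did. Without animal rh2957 it was -0.78 (edgeR adjusted p = 0.00908), and without the animal block the size was the same at -0.80 while the adjusted p was 0.130.

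**Figure D2:**
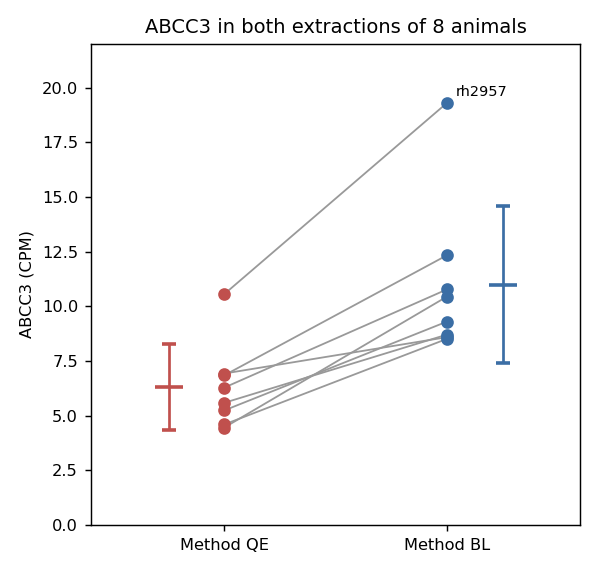
ABCC3 level in CPM in both libraries of each of the 8 animals, joined by a line, with the mean and SD of each method beside the points. In all 8 animals the Method QE point lies below the Method BL point, and animal rh2957 is highest at 10.6 and 19.3 CPM.

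Markers of mesothelium, the cell layer on the heart's surface, lay on the same side of 0 as ABCC3 without passing the test. All 7 mesothelial markers in the table (MSLN, UPK3B, ITLN1, WT1, KRT19, LRRN4 and BNC1) had a log2 fold change below 0, with a median of -1.33. By edgeR's test 0 of 7 were called, and 4 of 7 were lower at an unadjusted p of 0.05, against 9.65% of all genes. Their summed level was 1.09 to 406 CPM (median 39.1) in Method QE libraries and 29.4 to 270 CPM (median 125) in Method BL libraries, and 4 of the 7 were at 0 in some library. On average the sum was mostly ITLN1, at 96.3 CPM with Method QE and 107 CPM with Method BL. No other of these markers averaged above 6.15 CPM with either method. The mesothelial sum was higher with Method QE in 2 of the 8 animals. In r12075 it was 406 CPM with Method QE and 100.1 CPM with Method BL, and in I30 it was 335 CPM with Method QE and 270.1 CPM with Method BL, while ABCC3 was lower with Method QE in both. All 8 adipocyte markers also lay below 0, with a median of -0.28 and 0 called. Of 8 fibroblast markers 5 lay below 0, with a median of -0.31. The median was -0.31 for 2 tested hepatocyte markers and -0.01 for 8 Schwann cell markers. The other lists had medians above 0. These were 0.25 for cardiomyocytes, 0.14 for endothelium, 0.12 for macrophages and 0.10 for smooth muscle and pericytes. In each of these lists 0 markers were called. The part of these markers in the ABCC3 difference was not tested. In such bulk tissue, fewer cells of a type and less RNA per cell cannot be told apart.

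The other drug and bile exporters fell short of the threshold. All 7 tested genes of that group had a log2 fold change below 0, with a median of -0.21 and 1 called. ABCC10, a broad drug exporter also known as MRP7, measured 7.25 to 17.4 CPM (median 10.9) with Method QE and 10.8 to 15.1 CPM (median 13.9) with Method BL. Its libraries overlapped between methods, 7 of 8 animals had the lower level with Method QE, and its log2 fold change was -0.31 (SE 0.10, edgeR adjusted p = 0.119). ABCC1, a glutathione conjugate exporter, had a log2 fold change of -0.20 (edgeR adjusted p = 0.186). ABCC5, a cyclic nucleotide exporter, had -0.21 (edgeR adjusted p = 0.201). ABCC2, a canalicular conjugate exporter counted only 440 times over all libraries, had -0.55 with an SE of 0.32. ABCC4, a cyclic nucleotide and prostanoid exporter, had -0.12 and ABCG2 -0.03. Animal rh2957 went the other way for ABCC10 and ABCC5. It measured 17.4 CPM for ABCC10 with Method QE and 14.8 CPM with Method BL, and for ABCC5 it measured 102 CPM with Method QE and 82.8 CPM with Method BL. Without this animal the fit called 3 members, with ABCC10 at -0.39 (edgeR adjusted p = 0.0442) and ABCC5 at -0.28 (edgeR adjusted p = 0.0463) beside ABCC3. The share of all genes called in that fit is not given here, so the added calls cannot be read as particular to these members.

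Subunits of the ATP-sensitive potassium channel that were in the table did not differ detectably. ABCC9 measured 90.2 to 141 CPM (median 107) with Method QE and 63.2 to 153 CPM (median 110) with Method BL, and its log2 fold change was 0.05 (SE 0.08, edgeR adjusted p = 0.788). ABCC8, the sulfonylurea receptor SUR1 known from pancreatic beta cells, was counted 165 times in all and was among the least abundant members tested. It measured 0.0377 to 0.876 CPM (median 0.496) with Method QE and 0.140 to 0.818 CPM (median 0.476) with Method BL, and its log2 fold change of 0.02 had an SE of 0.48, so only a large difference could have been seen. KCNJ8, which encodes the pore subunit Kir6.1, averaged 19.5 CPM with Method QE and 17.0 CPM with Method BL, with a log2 fold change of 0.14 (edgeR adjusted p = 0.581). The gene of the other pore subunit, KCNJ11, was not in the table and could not be read.

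Of the ribosome-bound members, ABCE1 and ABCF3 had the 2 smallest coefficients of variation between animals in the Method QE libraries of the tested family, at 7.28% and 8.67%. With Method BL the coefficients were 10.8% for ABCE1 and 18.4% for ABCF3, and ABCF3 was then above ABCF1 at 11.0% and ABCF2 at 12.4%. ABCE1 measured 44.8 to 55.8 CPM (median 47.7) with Method QE and 39.3 to 56.8 CPM (median 46.8) with Method BL. Over the 32 tested members that coefficient had a median of 23.6% with Method QE and 24.8% with Method BL. ABCF3, a soluble protein of subfamily F, measured 22.1 to 27.7 CPM (median 25.7) with Method QE and 18.3 to 30.5 CPM (median 24.7) with Method BL. All 4 members of the group had a log2 fold change above 0, with a median of 0.06. The values were 0.05 for ABCE1 (SE 0.06), 0.04 for ABCF1, which binds initiation factor eIF2, and 0.08 for ABCF3 (SE 0.08, edgeR adjusted p = 0.605).

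Of the organelle transporters, 0 of 3 mitochondrial genes and 0 of 4 genes for peroxisomal fatty acid and cobalamin transport were called by edgeR's test after adjustment, and 0 of either group at an unadjusted p of 0.05. ABCD3 measured 47.8 to 89.1 CPM (median 66.2) with Method QE and 47.2 to 102 CPM (median 63.5) with Method BL, at a log2 fold change of -0.01 (SE 0.06). ABCD4, which takes part in lysosomal release of cobalamin, had -0.24 (edgeR adjusted p = 0.343).

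Among the A-subfamily lipid transporters, ABCA6 and ABCA2 passed only without adjustment. ABCA6, a neighbour of ABCA8, had a log2 fold change of -0.28 (edgeR adjusted p = 0.194), and ABCA2, an endolysosomal lipid transporter known from brain, had -0.22 (edgeR adjusted p = 0.204). ABCA7, a phospholipid exporter, had -0.15, and -0.0406 without animal r12075. With an offset for transcript length and GC content ABCA2 was at -0.0715 and ABCA7 at -0.0180. ABCA8 measured 55.2 to 217 CPM (median 192) with Method QE and 70.9 to 234 CPM (median 193) with Method BL, at a log2 fold change of -0.06 (SE 0.10). ABCG2 measured 22.9 to 50.8 CPM (median 35.3) with Method QE and 26.1 to 52.8 CPM (median 35.6) with Method BL. Another 11 tested members, among them the cholesterol exporters ABCA1 and ABCG1, ranged from -0.19 to 0.11, and their smallest edgeR adjusted p was 0.656.

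**Figure D3:**
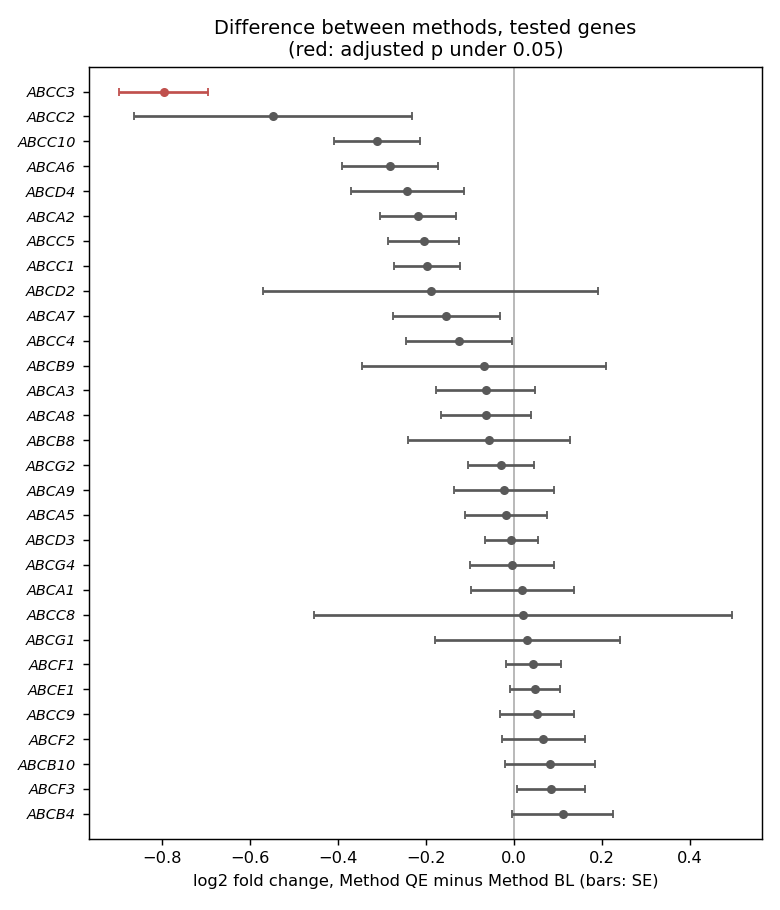
Log2 fold change of Method QE over Method BL for 30 of the 32 tested genes, sorted, with bars for the SE. ABCC3 at -0.80 stands alone in red as the gene with an adjusted p under 0.05, and the other genes drawn have grey points.

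The members left untested were rare. ABCC6, a gene of liver and kidney, had 14 counts in total and was at 0 in 10 of 16 libraries. ABCA13 had 33 counts and was at 0 in 6 libraries, ABCA4 of the retina had 131 counts and was at 0 in 1 library, and ABCC12 and the skin lipid transporter ABCA12 had 158 and 188 counts. A 0 in these libraries allows a level of up to 0.108 to 0.210 CPM, counting error only. ABCC8 with 165 counts and ABCB9, a lysosomal peptide transporter with 238 counts, were the tested members nearest to the filter.

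The difference between methods was set against the B or R ending of the Method BL library names, which the labels do not explain. The ending was B for 5 animals and R for 3. By edgeR's test of the interaction, 0 of 32 members passed after adjustment and 0 at an unadjusted p of 0.05, against 3.77% of all genes at that unadjusted threshold. ABCC3 had a log2 fold change of -0.81 among the 5 animals (edgeR adjusted p = 0.0449) and -0.77 among the 3 (edgeR adjusted p = 0.785, where no gene of the table was called).

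More members were called between animals than between methods. By edgeR's F test over the 8 animals, 16 of 32 members passed, against 31.5% of all genes tested. Of the members with at least 10 CPM, 11 of 18 passed, against 36.8% of all genes at that level, and below it 5 of 14 passed, against 25.6%. Both libraries of an animal come from its archived heart, so differences between animals and between the pieces sampled cannot be told apart. The ratio of the highest to the lowest animal, each averaged over both methods, had a median of 1.84 over the tested members, with 1.28 for ABCF2 at the low end and 9.55 for the sparsely counted ABCC2 at the high end. The members that passed included ABCA9, ABCD3, ABCA8, ABCG2, ABCA2, ABCC3, ABCG4, ABCC2, ABCA1, ABCC9, ABCC5, ABCF1, the ABCB4 row and ABCC4. ABCC3 did not pass without animal rh2957, nor among the animals with the ending B, which leave rh2957 out. The count was 10 without animal r16010 and also 10 without animal rh2957. The share of all genes called in those fits is not given here, so the lower counts cannot be read as particular to the members.

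**Figure D4:**
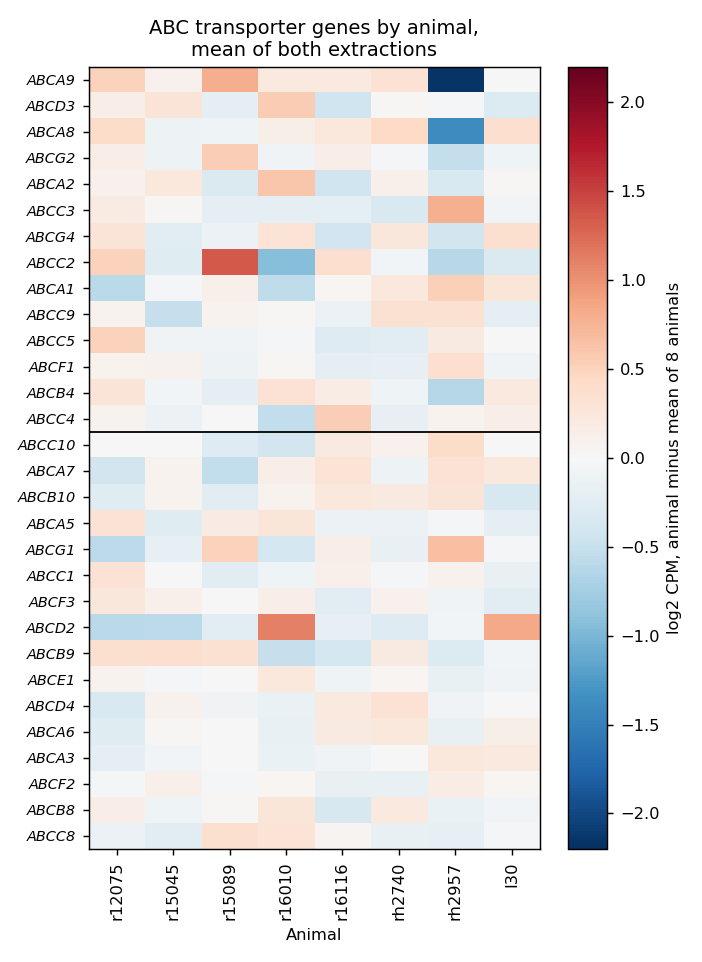
Deviation of each animal from the mean of the 8 animals in log2 CPM, averaged over both methods, for 30 of the 32 tested genes ordered by the F value between animals. The 14 genes above the black line passed the test, and the darkest blue cells are ABCA9 and ABCA8 in animal rh2957.

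ABCD3 differed between animals with animal rh2957 in the middle of their range. Animal r16010 was highest, with 89.1 CPM by Method QE and 102 CPM by Method BL, and animal r16116 was lowest, with 47.8 CPM by Method QE and 47.2 CPM by Method BL. The F value was 15.5 (edgeR adjusted p = 0.000533), and without animal rh2957 it was 21.7 (edgeR adjusted p = 0.000369). ABCG2 was highest in animal r15089, with 50.8 CPM by Method QE and 52.8 CPM by Method BL, and lowest in animal rh2957, with 22.9 CPM by Method QE and 26.1 CPM by Method BL (F = 8.53, edgeR adjusted p = 0.00498). Without animal r15089 the F value of ABCG2 was 3.95 and it no longer passed (edgeR adjusted p = 0.0679). ABCA1, the cholesterol exporter that loads apolipoprotein A-I, had an F value of 5.53 (edgeR adjusted p = 0.0199). It was highest in animal rh2957, with 62.0 CPM by Method QE and 65.0 CPM by Method BL. The other 7 animals measured 29.4 to 55.9 CPM and 26.1 to 56.3 CPM with the same methods. The lowest was animal r12075 with Method QE and animal r16010 with Method BL. ABCA1 still passed without animal rh2957 (F = 4.47, edgeR adjusted p = 0.0489). It did not pass without animal r12075 (F = 3.69, edgeR adjusted p = 0.0746) or without animal r16010 (F = 4.12, edgeR adjusted p = 0.0645).

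ABCA9 had the largest F value of the family and was low in 1 animal. Animal rh2957 measured 7.43 CPM with Method QE, where the other 7 animals measured 43.4 to 65.7 CPM, and 11.98 CPM with Method BL, where they measured 41.2 to 87.9 CPM. It was below all other libraries of the same method with either extraction. The F value was 22.7 (edgeR adjusted p = 0.000115), and without animal rh2957 it was 4.54 (edgeR adjusted p = 0.0473). ABCA8 was low in the same animal, at 55.2 CPM with Method QE, against 129 to 217 CPM in the others, and at 70.9 CPM with Method BL, against 129 to 234 CPM. Its F value was 13.8 (edgeR adjusted p = 0.000818), and without animal rh2957 it was 2.61 (edgeR adjusted p = 0.153). Between methods, ABCA9 measured 7.43 to 65.7 CPM (median 53.7) with Method QE and 11.98 to 87.9 CPM (median 47.6) with Method BL, at a log2 fold change of -0.02 (SE 0.11, edgeR adjusted p = 0.937).

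The neighbouring genes of the cluster were less far from the other animals, or within their range. ABCA6 in animal rh2957 measured 42.9 CPM with Method QE, below the others' 52.5 to 70.7 CPM, and 80.0 CPM with Method BL, inside the others' 55.3 to 91.6 CPM. ABCA5 in this animal measured 15.2 CPM with Method QE and 13.4 CPM with Method BL, inside the others' range with both methods. Ratios within a library do not depend on scaling. The ratio of ABCA9 to ABCA6 was 0.173 in the Method QE library of animal rh2957, against 0.633 to 1.21 in the others, and 0.150 in its Method BL library, against 0.584 to 1.12. The ratio of ABCA8 to ABCA6 was 1.29 in the Method QE library of animal rh2957, against 2.37 to 4.12 in the others, and 0.886 in its Method BL library, against 2.04 to 3.83. The animal was singled out after its values were seen, so these ratios are a description and carry no test. ABCA6 itself did not pass between animals (F = 1.31, edgeR adjusted p = 0.406).

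**Figure D5:**
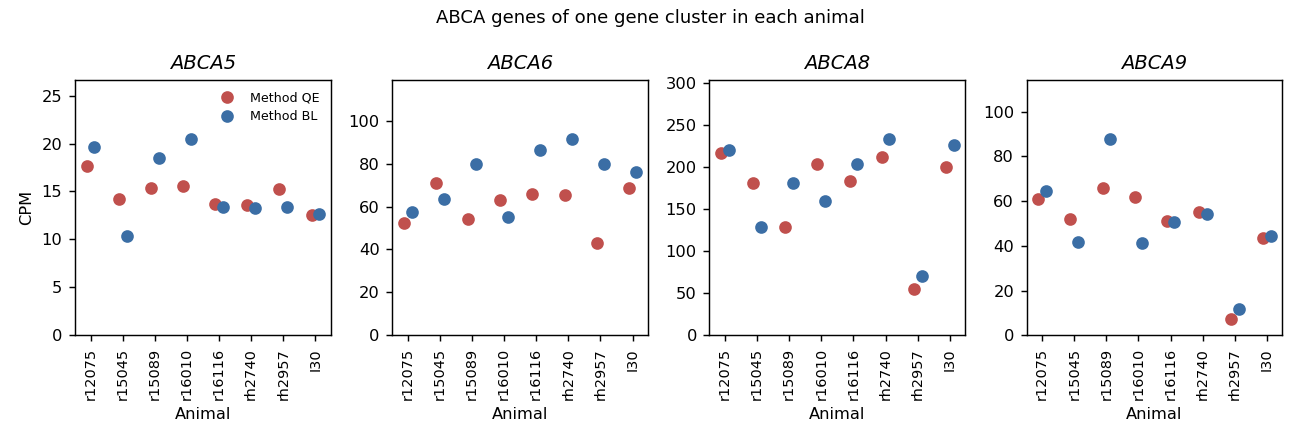
Levels in CPM of ABCA5, ABCA6, ABCA8 and ABCA9 in each of the 8 animals, Method QE left and Method BL right, with axes that start at 0. ABCA8 and ABCA9 are low in animal rh2957 with both methods (ABCA9 at 7.43 and 11.98 CPM), while ABCA5 is within the range of the other animals.

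Markers of other cell types stood apart in animal rh2957 as well. The summed level of 7 macrophage markers was 497 CPM with Method QE, against 162 to 311 CPM in the other animals, and 763 CPM with Method BL, against 122 to 304 CPM. The summed level of 8 fibroblast markers was 791 CPM with Method QE, inside the others' 729 to 4487 CPM, and 1854 CPM with Method BL, inside their 693 to 6599 CPM. The upper ends were animal r15045 with Method QE and animal r16116 with Method BL. On average DCN was the largest part, at 640 CPM with Method QE and 619 CPM with Method BL. The collagen genes COL1A1, COL3A1 and COL1A2 came next. Single fibroblast markers are not given for this animal. Of 8 listed hepatocyte markers, 3 were in the table (SERPINA1, TF and TTR), while ALB, APOA2, CYP2E1, CYP3A4 and HP were not. With Method QE the 3 summed to 22.2 CPM in animal rh2957, against 3.78 to 10.02 CPM in the others. With Method BL they summed to 38.7 CPM, against 2.06 to 16.05 CPM. SERPINA1 was the largest, averaging 6.89 CPM over Method QE libraries and 7.79 CPM over Method BL libraries. TF averaged 1.43 and 2.57 CPM in that order, and TTR 0.450 and 0.225 CPM. These 3 genes alone do not show RNA of hepatocytes. The other lists outside the range of the other animals were so with 1 method each. With Method BL the cardiomyocyte sum was lower, at 11317 CPM against 15414 to 29589 CPM, and the adipocyte sum was higher, at 448 CPM against 147 to 331 CPM. With Method QE the mesothelial sum was lower, at 1.09 CPM against 2.52 to 406 CPM, and so was the sum for smooth muscle and pericytes, at 503 CPM against 509 to 908 CPM. Their part in the levels of ABCA8, ABCA9, ABCA1 and ABCC3 in this animal was not tested. Animal rh2957 was the highest of the 8 for 9 members and the lowest for 7, and among all genes tested it was highest for 19.5% and lowest for 19.5%.

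Genes that work with the transporters were read from the same fit. Of 62 listed partners, 56 were in the table, and by edgeR's test 0 of 56 passed after adjustment in either direction, as with DESeq2 and limma-voom. At an unadjusted p of 0.05, 5 partners were lower and 4 were higher with Method QE, together 9 of 56, against 18% of all genes. The lists covered liver X receptors and cholesterol handling (18 tested), xenobiotic receptors (4), iron-sulfur and heme synthesis (12), peroxisome and cobalamin (9), ribosome recycling (10), the potassium channel pore (1) and ABC genes with other symbols (2). LCAT, which esterifies the cholesterol that ABCA1 exports, averaged 3.31 CPM with Method QE and 5.17 CPM with Method BL, with a log2 fold change of -0.69 (edgeR adjusted p = 0.139). NFE2L2, a regulator of several ABCC exporters in human and mouse cells, had 0.17 (edgeR adjusted p = 0.160). PELO, which acts with ABCE1 on stalled ribosomes, had -0.19 (edgeR adjusted p = 0.233), and CD320, the cobalamin receptor, had 0.28 (edgeR adjusted p = 0.249). SLC25A37, the mitochondrial iron importer, had the lower level with Method QE in each of 8 animals, at -0.15 (edgeR adjusted p = 0.206). BOLA3, an iron-sulfur cluster assembly factor, had the higher level with Method QE in each of 8 animals, at 0.24 (edgeR adjusted p = 0.208). CFTR, an ABC chloride channel whose symbol falls outside the family's naming, averaged 2.38 CPM with Method QE and 2.84 CPM with Method BL, with a log2 fold change of -0.52 (edgeR adjusted p = 0.325).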

How the data were processed

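Total RNA from the same 8 hearts was depleted of ribosomal RNA and sequenced as stranded libraries. The authors aligned reads to Mmul_10 with STAR 2.7.8a and estimated gene counts with the Partek E/M algorithm and Ensembl annotation, and the deposited estimated counts were not normalized. Whether counting used strand is not given in the sources used here. Genes under a summed count of 10 are missing from the table, and 76.7% of values were whole within 1e-06. The methods were taken from the labels, although the extraction text names the Method QE kit for all 16 samples. The members, groups and lists were chosen with earlier results of these data known.

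Counts were rounded, filtered (filterByExpr) and scaled by TMM, and 14165 genes were tested by edgeR 4.0.16 in R 4.3.3 with animal and method as terms, a quasi-likelihood F test and Benjamini-Hochberg adjustment over all genes at 0.05. The scripts were tested on simulated data. Pairs were formed from the animal name in the library label, since the numbered replicates match the same animal in both methods only 1 time. Deviations from the method means correlated at 0.345 to 0.637 within an animal, above the highest value of 0.231 for any other pairing. Alternatives were DESeq2 1.42.0, limma-voom (limma 3.58.1), other scalings and filters, and fewer animals. Values in every library were given for members past the threshold, for the 2 smallest adjusted p-values in each direction, the most abundant member of each subfamily per kb, the 2 largest F values between animals, both channel subunits and members nearest to the filter, with fold changes only for others, and 2 members are not reported here singly. Of 13636 symbols found in RefSeq, 99.8% lay at the same place, so Mmul_10 positions were used. The rows ATG9A and PSMB8 cover the RefSeq genes ABCB6 and TAP1, which were not analysed here. Floors cover counting error only. SEs come from the quasi-likelihood fit and include the spread between libraries left after the animal and method terms.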

Additional observations from a re-analysis of the deposited data

Results flagged for a closer look

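Among 64 groups of 8 libraries (each tested member in each method), 9 held 1 library far from the rest, judged by the gap of the highest or lowest library to its nearest neighbour as a share of the group's range on the log2 scale. Chance alone gives about 1 in 20 groups where log2 values are normal and groups are independent. These groups share the same 16 libraries, and the rule was not applied to genes outside the family. The count of 9 can therefore not be read as an excess or as particular to the family. In 6 of the 9 the library was from animal rh2957. Among all genes tested, averaged over both methods, this animal was highest for 19.5% and lowest for 19.5%. With Method QE it was the lowest for ABCA8 (ratio 0.620), ABCA9 (0.810) and ABCC8 (0.591, a single count at 0.0377 CPM, where the next library had 0.258 CPM). With Method BL it was the lowest for ABCA9 (0.619) and for the ABCB4 row (0.533, 3.64 CPM, where the next library had 6.09 CPM) and the highest for ABCC3 (0.547). The other 3 were Method BL libraries. Animal r12075 was the highest for ABCC1 (0.530, 34.9 CPM, next 27.1 CPM) and for ABCC5 (0.672, 130 CPM, next 89.3 CPM), and animal r16010 was the lowest for ABCC2 (0.536, 0.162 CPM, next 0.981 CPM).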

How the results depend on the processing

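ABCC3 passed in 19 of 21 alternatives, at log2 fold changes of -0.87 to -0.74. The adjusted p ranged from 3.13e-07 to 0.785. Without the animal block (no replicate block) its log2 fold change was -0.80 and 0 members were called, with 5 genes called over the whole table. Among the 3 animals with the ending R it was -0.77 and 0 members were called, with 0 genes over the whole table. Leaving out each animal gave 1 to 3 members called, and the 3 came without animal rh2957. The share of all genes called is not set beside these counts. Partner genes stayed at 0 called in every setting, and the interaction with the library-name ending did so in those it was run in (the other scalings and filters and each animal left out). The count of members called between animals was 7 when only the 5 animals with the ending B were kept, 10 to 17 when each animal was left out, and 12 to 17 in the other settings. These counts, too, have no share of all genes called beside them, so their changes cannot be read as particular to the members. The share of counts moved by less than 1 SD in every setting, from -0.0296 to -0.0182 percentage points when each animal was left out.

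The sign of the log2 fold change was the same in every setting for 15 of 32 members and turned in some setting for 17, whose values lay between -0.19 and 0.11. Of those named with a value, ABCA9 turned to 0.00436 without the block, 0.00071 by limma-voom, 0.0167 with the block and an offset for length and GC content, and 0.10 among animals with the ending B (-0.11 to 0.0581 when each animal was left out). ABCC8 turned to -0.00235 by upper quartile scaling and -0.28 with the ending R (-0.17 to 0.43). ABCC9 turned to -0.0384 with the ending B (-0.0116 to 0.11). ABCD3 turned to 0.00928 without a filter, 0.00520 with the offset and 0.0449 with the ending R (-0.0348 to 0.0271). ABCG2 turned to 0.00518 with the ending R and 0.0194 without the 2 animals whose Method QE names start with 2- (-0.0699 to 0.00200). The cause of these changes was not tested. ABCC8 rested on 165 counts over the 16 libraries.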
